A study of Arabidopsis thaliana with 12 samples.

Results

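The 33 core histone genes described here are 33 of the 32833 genes in the count table, taken by locus: 5 genes for the canonical histone H3.1, 3 for the replacement histone H3.3, 8 for H4, 4 for H2A, 2 for H2A.X, 3 for H2A.W and 8 for H2B. They were chosen by identity and not by measured values, though with earlier results of these data known. Genes for H2A.Z are not among them. RNA came from whole Arabidopsis thaliana seedlings 12 days after germination, with 3 libraries of each of 4 genotypes. The mutants were nrpb2-3, in the second-largest subunit of RNA polymerase II, ssrp1-2, in the smaller subunit of the histone chaperone FACT, and spt16-2, in its larger subunit. The wild type was Columbia-0. Seeds of all genotypes were kept in the cold at 4 °C for 4 days, and the plants grew in long days at about 21 °C. No other treatment is named, and the labels describe the lesion of no allele. Nothing in them tells if the libraries of a genotype are separate growings, so p-values reflect library spread that could be technical.

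Core histones form the protein spool of the nucleosome, on which DNA is wound, and each is encoded in plants by a family of related genes. Canonical H3.1, H4, H2A and H2B genes are transcribed mainly while DNA is replicated, when new nucleosomes are needed behind the replication fork. H3.3 is made throughout the cell cycle and replaces H3 lost during transcription. H2A.X is phosphorylated at DNA breaks, and H2A.W is the H2A of plant heterochromatin. FACT binds H2A with H2B and lets RNA polymerase II pass nucleosomes. The comparisons ask whether seedlings impaired in FACT or in the polymerase hold other amounts of histone transcripts.

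Each library held 39483328 to 43434901 counts, and all 33 genes passed the filter on low counts. The nrpb2-3 libraries stood apart on the first principal component, which held 42.4% of the variance. SSRP1 transcripts stood at 17.9 to 20.7 CPM in ssrp1-2 and 38.9 to 48.4 CPM in Columbia-0. SPT16 transcripts stood at 27.8 and 30.0 CPM in spt16-2 replicates 1 and 3, but at 55.4 CPM in the library labelled spt16-2 replicate 2, against 44.9 to 62.0 CPM in Columbia-0, so the counts of calls and the medians of spt16-2 are also given without that library. NRPB2 transcripts were higher in nrpb2-3, at 67.1 ± 1.96 CPM, than in Columbia-0, at 42.3 ± 5.43 CPM (SD, n = 3 each), so they do not check that label. CPM values here are scaled with edgeR's TMM factors, and a gene is called when its Benjamini-Hochberg adjusted p over all 20471 tested genes is under 0.05 in edgeR's quasi-likelihood test.

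Per unit of transcript length, the core histone genes differed widely in level. With counts divided by length and rescaled to a common total in each library, a TPM-like scale, the highest means over the 12 libraries belonged to the H3.1 gene AT5G65360 at 283, the H3.3 gene AT4G40040 at 270, the H4 gene AT5G59690 at 269 and the H2B gene HTB4 (AT5G59910) at 248. In Columbia-0 these genes stood at 253 ± 33.8, 218 ± 31.5, 263 ± 39.9 and 244 ± 11.5 on that per-length scale, so their order there did not differ beyond the spread. The lowest were the H2A.W gene HTA12 (AT5G02560) at 7.92 and the H3.1 gene AT3G27360 at 9.21. The highest and lowest of these core histone genes were thus over an order of magnitude apart, and each had at least 76 counts in every library.

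In nrpb2-3, core histone transcripts did not move as a block: the H2B gene AT3G53650 and the H4 gene AT1G07660 rose, and genes of H2B, H4, H3.1 and H2A.X fell. Of the 33 genes 2 were called higher and 6 lower than in Columbia-0, or 24.2% of them, while 30.9% of all tested genes were called (15.8% higher and 15.1% lower). The share of called histone genes was thus not above that of the genome. Libraries of nrpb2-3 and Columbia-0 did not overlap for 3 higher and 12 lower histone genes, while 24.3% of all tested genes were so higher and 19.9% so lower. Their median log2 fold change was −0.28, beside 0.05 for all tested genes, with 10 genes above 0 and 23 below. The rises and falls occurred inside the same families, so that H2B and H4 each had called genes in opposite directions.

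These directions are relative to the TMM scale, which places most genes near no change. With library totals alone, the median of all tested genes shifted to 0.59 in nrpb2-3 against Columbia-0, and the histone median to 0.26, still below that of all genes. On that scale 14 histone genes were called higher and none lower (10688 and 758 of all genes). With median-of-ratios factors 1 was higher and 9 were lower (2957 and 3335 of all genes). As a share of all counts, core histone genes took 0.269% ± 0.0168 in nrpb2-3 and 0.219% ± 0.0206 in Columbia-0 (SD, n = 3 each), the opposite direction to the scaled median. In whole seedlings a change in the number of cells of a type cannot be told apart from a change in RNA per cell.

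Markers of organs moved in nrpb2-3 as well. All 5 leaf markers were called lower, with summed levels of 21741 to 41553 CPM in nrpb2-3 and 80035 to 93206 CPM in Columbia-0, and RBCS1A, RBCS1B and RCA, which encode small subunits and the activase of Rubisco, had log2 fold changes of −1.36, −1.74 and −1.43. Of 6 root markers 5 were tested and 2 were called higher, PYK10 (1.32 ± 0.33) and SHR (0.62 ± 0.13), with summed levels of 232 to 347 CPM in nrpb2-3 and 121 to 162 CPM in Columbia-0. Leaf markers summed to 56657 to 84247 CPM and root markers to 95.5 to 143 CPM in the FACT mutants. Of 4 pollen markers, HTR10 and ANX2 had 0 counts per library in nrpb2-3 and Columbia-0, ANX1 was not called, and HAP2 was called higher (1.71 ± 0.52). The root hair marker EXPA7 was at or near 0. The part of organ makeup in the histone differences was not tested.

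**Figure D1:**
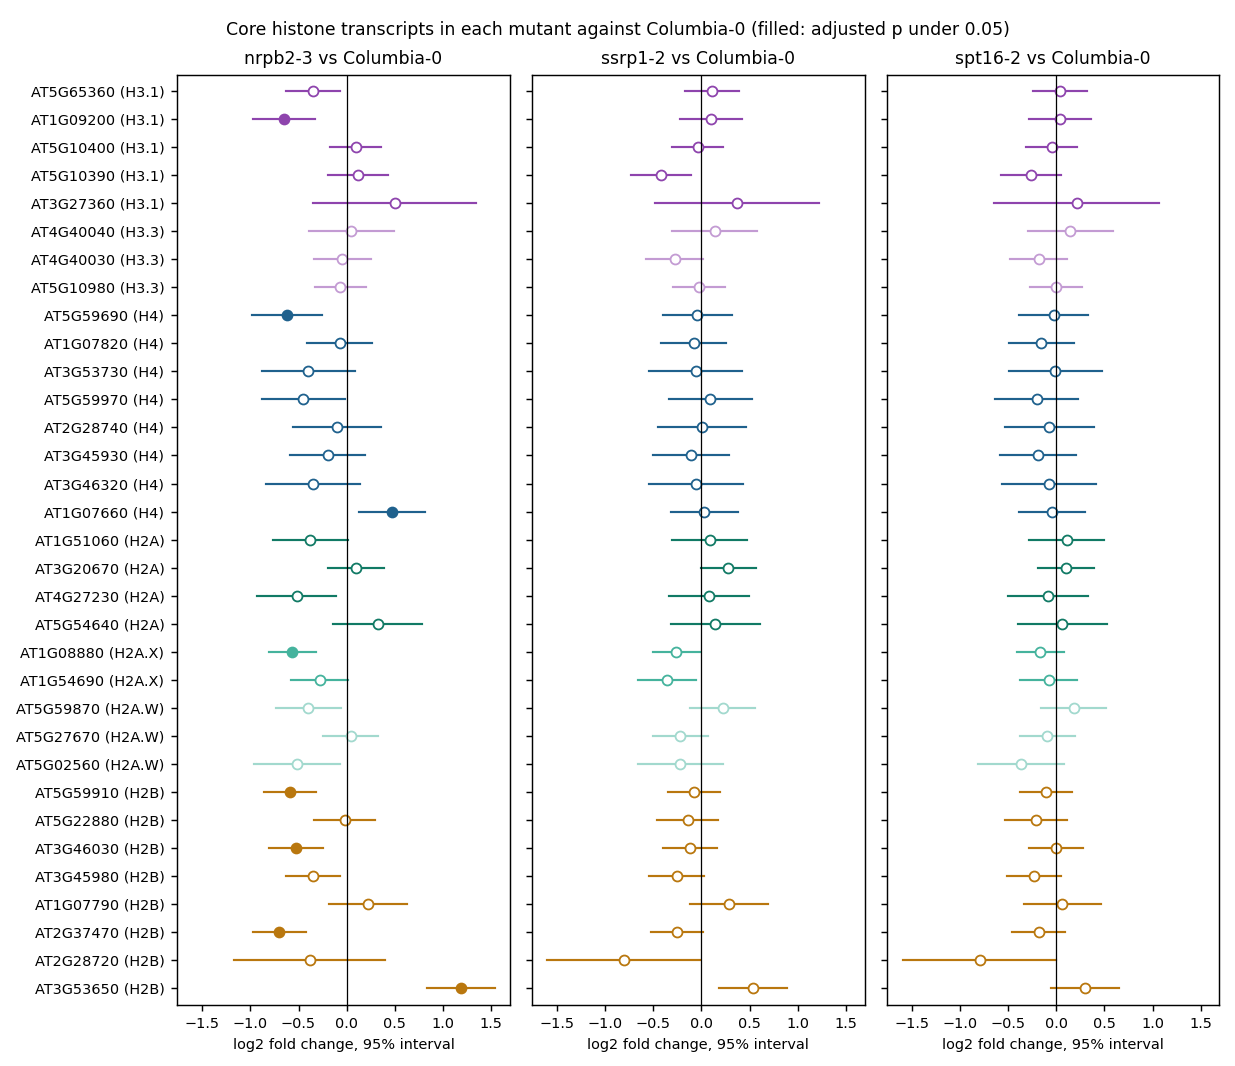
Log2 fold change with its 95% interval for each of the 33 core histone genes (rows, coloured by type) in nrpb2-3, ssrp1-2 and spt16-2 against Columbia-0, with filled points for adjusted p under 0.05. In nrpb2-3 the H2B gene AT3G53650 at 1.18 stands far to the right of the other H2B genes, and no point is filled for either FACT mutant.

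Among the H3.1 genes, which supply the replication-coupled H3, AT1G09200 fell in nrpb2-3. Its level was 61.9, 76.8 and 70.3 CPM in nrpb2-3 and 97.3, 106 and 126 CPM in Columbia-0. The groups did not overlap, and the log2 fold change was −0.65 ± 0.15 (SE; adjusted p = 0.0056, edgeR). AT5G65360, the strongest H3.1 gene, stood at 102, 121 and 105 CPM in nrpb2-3 and 125, 155 and 137 CPM in Columbia-0. All its nrpb2-3 libraries were below all Columbia-0 libraries, but the difference missed the threshold (−0.35 ± 0.13, adjusted p = 0.057, edgeR) and was called in 6 of 21 alternatives. The other H3.1 genes had log2 fold changes of 0.09 (AT5G10400), 0.12 (AT5G10390) and 0.50 (AT3G27360), and none was called. AT3G27360 overlaps AT3G27380 on the same strand, so its counts may hold reads of that gene.

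The H3.3 genes AT4G40030, AT4G40040 and AT5G10980, which supply the replication-independent H3, had log2 fold changes of −0.05, 0.05 and −0.07 in nrpb2-3. AT4G40040 stood at 303, 273 and 203 CPM in nrpb2-3 and 222, 278 and 254 CPM in Columbia-0, and the groups overlapped in all 3 genes. On the TMM scale their 95% intervals all lay within ±0.49. With library totals alone all 3 were called higher, at 0.49 for AT4G40030, 0.57 for AT4G40040 and 0.47 for AT5G10980 (adjusted p = 0.0026, 0.0074 and 0.0024, edgeR). As a share of the per-length level of all H3 genes, H3.3 took 55.6% ± 3.89 in nrpb2-3 and 51.1% ± 2.89 in Columbia-0 (SD, n = 3 each). The ranges overlapped, at 52.6 to 60.0% in nrpb2-3 and 48.98 to 54.4% in Columbia-0.

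H4 has 8 genes here for 1 protein, and 2 of them were called in opposite directions in nrpb2-3. AT5G59690, the strongest H4 gene, stood at 99.7, 111 and 80.1 CPM in nrpb2-3 and 131, 168 and 147 CPM in Columbia-0 (−0.62 ± 0.17, adjusted p = 0.013, edgeR). AT1G07660, the weakest, stood at 15.6, 16.2 and 18.7 CPM in nrpb2-3 and 13.3, 12.2 and 10.9 CPM in Columbia-0 (0.47 ± 0.16, adjusted p = 0.038, edgeR). Neither pair of groups overlapped. The call of AT1G07660 was lost with median-of-ratios factors and in 6 of 12 fits without 1 library (nrpb2-3 replicate 1, 2 or 3, ssrp1-2 replicate 1, Columbia-0 replicate 2 or 3), with an adjusted p up to 0.15. AT5G59690 was lost without nrpb2-3 replicate 3 or Columbia-0 replicate 2, with an adjusted p up to 0.052. AT1G07660 shares 28.5% of its 50-base windows with other genes, among them the H4 gene AT1G07820, and AT5G59690 shares 8.48% with AT5G59970, so reads in those windows could count for either gene. The other 6 H4 genes had log2 fold changes from −0.45 to −0.07, and none was called.

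Of the H2A-type genes, the H2A.X gene H2AXA (AT1G08880) was called in nrpb2-3. It stood at 66.2, 69.3 and 59.7 CPM in nrpb2-3 and 102, 88.7 and 97.4 CPM in Columbia-0, with no overlap (−0.56 ± 0.11, adjusted p = 0.0026, edgeR). The other H2A.X gene, GAMMA-H2AX (AT1G54690), had −0.28 ± 0.14 and was not called (adjusted p = 0.14), and its counts may hold reads of annotated genes on the other strand. Of the H2A.W genes, HTA6 (AT5G59870) stood at 70.5, 79.8 and 64.8 CPM in nrpb2-3 and 76.3, 102 and 106 CPM in Columbia-0. Those groups overlapped through Columbia-0 replicate 1, and HTA6 was not called (−0.40 ± 0.16, adjusted p = 0.071, edgeR). HTA12 at −0.51 and HTA7 (AT5G27670) at 0.04 were not called either. HTA12 shares 34.2% of its 50-base windows with AT5G02570, which overlaps it on the other strand.

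None of the 4 canonical H2A genes was called against Columbia-0 in nrpb2-3. HTA2 (AT4G27230) was nearest, at 48.2, 43.5 and 32.6 CPM in nrpb2-3 and 55.4, 64.97 and 57.6 CPM in Columbia-0 (−0.52 ± 0.19, adjusted p = 0.055, edgeR), and it was called lower in 8 of 21 alternatives, DESeq2 among them. HTA10 (AT1G51060), the strongest canonical H2A gene, stood at 77.8, 82.9 and 74.2 CPM in nrpb2-3 and 90.4, 91.8 and 123 CPM in Columbia-0 (−0.38 ± 0.18, adjusted p = 0.13, edgeR). Both genes had all nrpb2-3 libraries below all Columbia-0 libraries. RAT5 (AT5G54640), the HTA1 gene named for the resistance of its mutant to Agrobacterium transformation, pointed the other way at 23.5 to 30.6 CPM in nrpb2-3 and 19.9 to 22.4 CPM in Columbia-0 (0.32 ± 0.21, adjusted p = 0.27, edgeR).

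The H2B family held both the largest rise and the largest fall among core histone genes in nrpb2-3. AT3G53650 stood at 13.9, 19.0 and 17.2 CPM in nrpb2-3, at 9.85, 11.4 and 10.7 CPM in ssrp1-2, at 10.2, 8.51 and 8.39 CPM in spt16-2, and at 5.91, 7.995 and 8.11 CPM in Columbia-0. All nrpb2-3 libraries were above the other 9, and the log2 fold change to Columbia-0 was 1.18 ± 0.16, a 2.27-fold rise (adjusted p = 0.00027, edgeR). This H2B gene was called in all 21 alternatives, with an adjusted p of at most 0.0033. Of the 33 core histone genes it was the only one with a called difference that kept its call with every scaling tried, in both comparisons of nrpb2-3.

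Against that rise, 3 other H2B genes fell in nrpb2-3. AT2G37470 stood at 24.5, 29.5 and 31.1 CPM in nrpb2-3 and 49.5, 43.8 and 44.8 CPM in Columbia-0 (−0.70 ± 0.13, adjusted p = 0.0015, edgeR). HTB4, the strongest H2B gene, stood at 149, 175 and 155 CPM in nrpb2-3 and 249, 231 and 238 CPM in Columbia-0 (−0.59 ± 0.13, adjusted p = 0.0039, edgeR). HTB11 (AT3G46030) stood at 59.2, 67.9 and 63.2 CPM in nrpb2-3 and 91.2, 83.1 and 99.7 CPM in Columbia-0 (−0.53 ± 0.13, adjusted p = 0.0085, edgeR). No group of these genes overlapped with its counterpart, and all 3 kept their calls without any 1 library. HTB9 (AT3G45980) missed the threshold at −0.35 ± 0.13 (adjusted p = 0.057, edgeR) and was called lower in 6 of 21 alternatives. It shares 31.4% of its 50-base windows with AT3G07315 or HTB11, so reads there could count for another gene. HTB1 (AT1G07790) at 0.22, HTB2 (AT5G22880) at −0.02 and AT2G28720 at −0.39 were not called. With library totals alone, AT3G53650 was at 1.72 ± 0.20 (adjusted p = 3.61e-05, edgeR), while AT2G37470 at −0.15, HTB4 at −0.05 and HTB11 at 0.01 were not called.

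**Figure D2:**
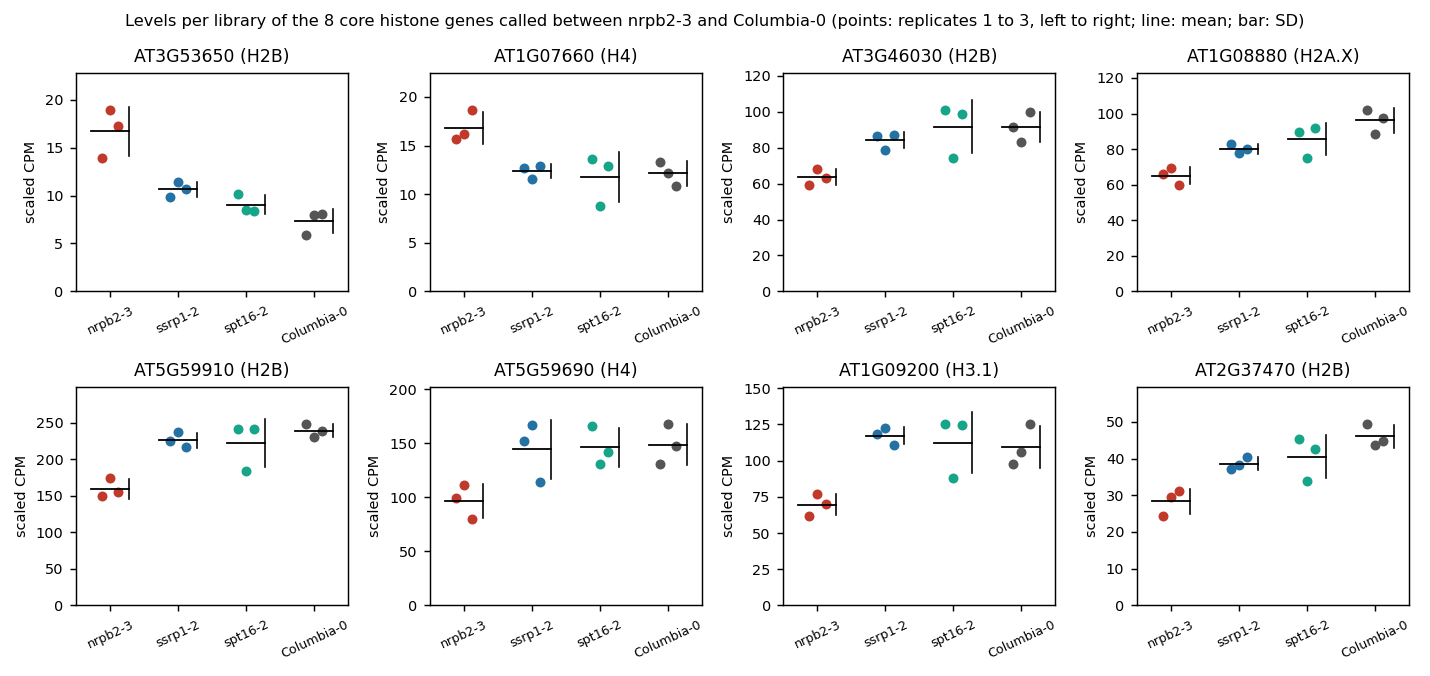
Scaled CPM in each of the 12 libraries for the 8 core histone genes called between nrpb2-3 and Columbia-0, with the mean (line) and SD (bar) of each genotype. In the 2 called higher, AT3G53650 and AT1G07660, all nrpb2-3 points lie above the Columbia-0 points, and in the 6 called lower they lie below them.

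Shares within a family do not depend on how libraries are scaled to each other, and they differed as well. AT3G53650 made up 3.22% ± 0.274 of the per-length level of all H2B genes in nrpb2-3, 1.81% ± 0.154 in ssrp1-2, 1.56% ± 0.167 in spt16-2 and 1.15% ± 0.21 in Columbia-0 (SD, n = 3 each). HTB4 took 22.9% ± 1.12 of H2B in nrpb2-3 and 27.9% ± 1.69 in Columbia-0, and HTB11 15.7% ± 0.405 in nrpb2-3 and 18.3% ± 0.429 in Columbia-0. HTB2, which was not called, took 24.5% ± 3.34 in nrpb2-3 and 20.2% ± 1.28 in Columbia-0, with overlapping libraries. HTB1, also not called, took 11.2% ± 1.17 in nrpb2-3 and 7.78% ± 0.993 in Columbia-0, without overlap. Of the 8 H2B genes, 2 had higher and 3 had lower shares in nrpb2-3 with no overlap to Columbia-0. This measure has no counterpart over all tested genes.

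Shares also differed in the other families. AT5G59690 took 32.2% ± 2.24 of the per-length level of all H4 genes in nrpb2-3 and 39.1% ± 3.81 in Columbia-0, and AT1G07660 took 5.86% ± 1.12 in nrpb2-3 and 3.34% ± 0.744 in Columbia-0. AT1G09200 took 10.9% ± 1.37 of all H3 in nrpb2-3 and 15.4% ± 1.77 in Columbia-0, while AT5G10390 took 5.83% ± 0.302 in nrpb2-3 and 4.85% ± 0.447 in Columbia-0. The nrpb2-3 libraries lay outside the range of the Columbia-0 libraries for each of these genes. By that measure 1 of 8 H3 genes was higher and 2 lower, and 3 of 8 H4 genes were higher and 1 lower. The H4 genes AT1G07820 and AT2G28740 were among those higher. Of 9 genes of the H2A family 3 were higher and 1, H2AXA, was lower. AT5G65360 and AT1G09200 together, a pair chosen after their values were seen, made up 65.1% ± 0.654 of H3.1 in nrpb2-3 and 73.9% ± 0.823 in Columbia-0. In the H2A family, H2A.W took 30.1% ± 1.06 in nrpb2-3, 30.8% ± 0.314 in ssrp1-2, 31.3% ± 0.93 in spt16-2 and 29.9% ± 1.28 in Columbia-0. Within it, HTA7 took 10.1% ± 1.19 in nrpb2-3 and 8.13% ± 0.867 in Columbia-0, without overlap. HTA6 took 19.0% ± 0.629 in nrpb2-3 and 20.7% ± 2.21 in Columbia-0, with overlap. Without overlap, RAT5 took 6.35% ± 0.904 in nrpb2-3 and 4.20% ± 0.251 in Columbia-0. HTA13 (AT3G20670) took 17.8% ± 1.39 in nrpb2-3 and 13.8% ± 0.976 in Columbia-0, also without overlap. H2A.X took 15.7% ± 0.255 in nrpb2-3, 14.7% ± 1.44 in ssrp1-2, 16.4% ± 0.922 in spt16-2 and 18.6% ± 1.89 in Columbia-0, and all 9 mutant libraries lay below the Columbia-0 libraries.

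**Figure D3:**
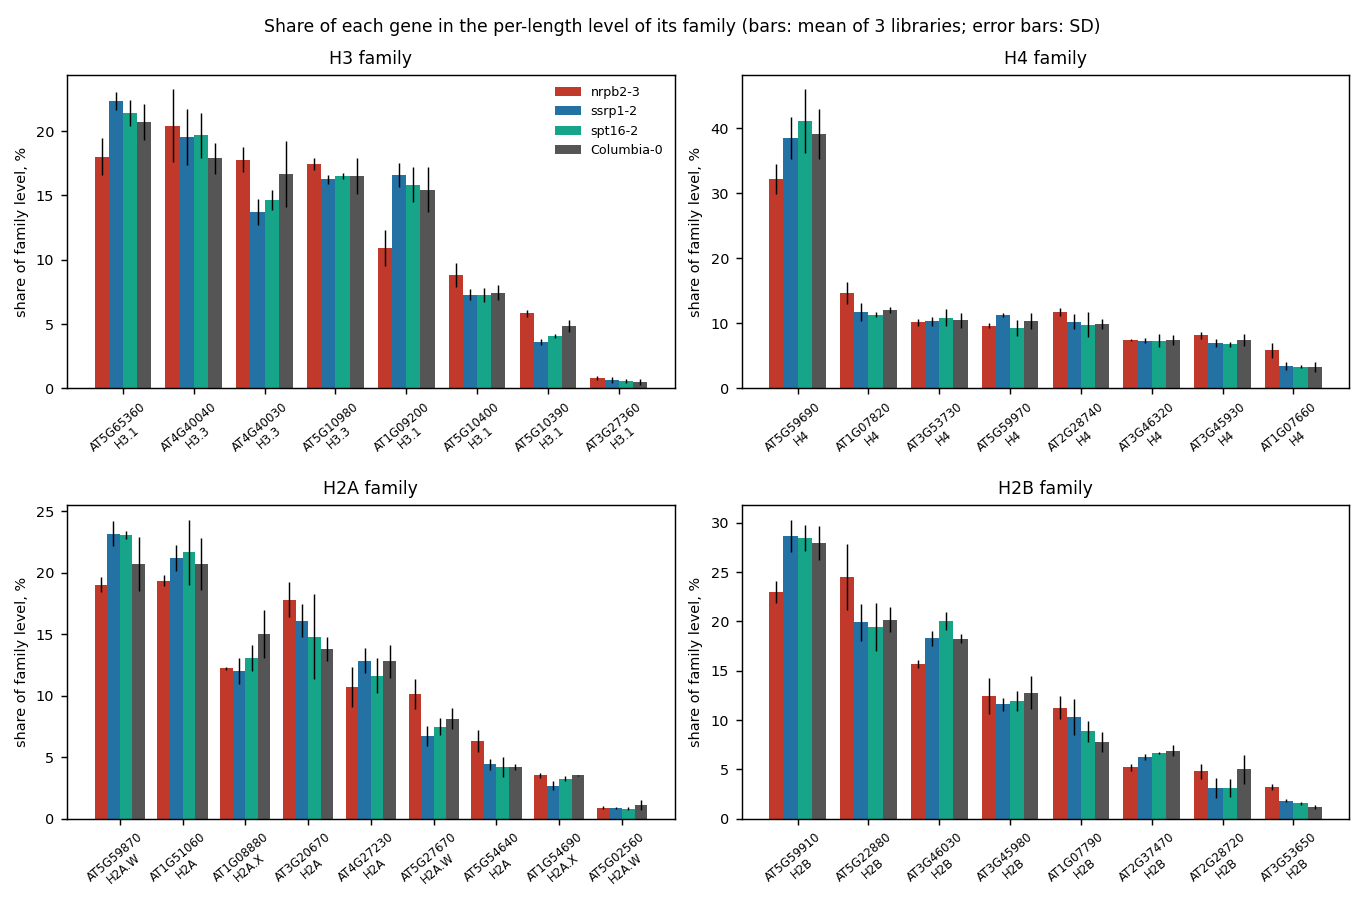
Share of each gene in the per-length level of its histone family (percent, mean of 3 libraries with SD) in nrpb2-3, ssrp1-2, spt16-2 and Columbia-0, for the H3, H4, H2A and H2B families. The strongest H4 gene AT5G59690 falls short of its Columbia-0 share of 39.1% in nrpb2-3 at 32.2%, and the weak H2B gene AT3G53650 exceeds its Columbia-0 share of 1.15% at 3.22%.

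All 8 H2B genes, called or not, share a promoter motif. The hexamer ACGTCA is the core of a hexamer and octamer pair first described in histone promoters of wheat and bound by basic leucine zipper proteins. It was searched on both strands, as was every motif below, in 300-base promoters (250 before and 50 after the annotated start, from the RefSeq genome and annotation, TAIR10.1). It was present in 8 of 8 H2B promoters and in 12 of 33 core histone promoters (36.4%), against 9.19% of 27431 protein-coding promoters. All H2B sites ran in the direction of transcription. The only site of HTB4 begins 40 bases after the annotated start, and the second site of HTB2 begins 2 bases after it. The sites are shown because genes called in opposite directions carry them. Below, the hexamer is in capitals and each stretch is read 5′ to 3′ on the strand of the gene.
HTB1 (AT1G07790, chr1:2412895-2412924, plus strand): tgagaaatatacACGTCAatgatcctcgtg
HTB2 (AT5G22880, chr5:7652892-7652921, minus strand): tcaaaagtaaccACGTCAgctatccacgcc
HTB2, second site (chr5:7652695-7652724, minus strand): actcatatctccACGTCAcgcatccgcgtt
AT2G28720 (chr2:12326746-12326775, plus strand): ctaacgtgatccACGTCAccaacgatactg
HTB4 (AT5G59910, chr5:24126905-24126926, plus strand): ccaatctgggacACGTCAatag
AT2G37470 (chr2:15736667-15736696, plus strand): tttatttaagccACGTCAtcgatcctcgcg
AT3G53650 (chr3:19889189-19889218, plus strand): tggatggatgacACGTCAtcgatccgcaag
HTB9 (AT3G45980, chr3:16898152-16898181, minus strand): accaatattgacACGTCAtcgatcccgctt
HTB11 (AT3G46030, chr3:16914202-16914231, minus strand): gtaatatattccACGTCAtcaatcctcgtg

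In most of these H2B stretches the hexamer is followed, after 3 bases, by ATCC. The same letters lie inside GATCCGCG, the reverse complement of the octamer described below. A search for ACGTCANNNATCC, a pattern written after these stretches were seen, found it in 6 of 8 H2B promoters, and not in that of AT2G28720. It was not found in the promoter of HTB4 either, but that window ends too soon after the hexamer for the pattern to fit at that site. It was also present in the promoters of the H3.3 gene AT5G10980 and the H4 gene AT1G07820, so that 8 of 33 core histone promoters (24.2%) held it, against 32 of 27431 (0.117%). The pattern was seen in promoters of an H2B gene that rose in nrpb2-3 (AT3G53650), of H2B genes that fell (AT2G37470, HTB11) and of genes not called. Over the 12 core histone genes with the hexamer, 1 was called higher and 3 lower in nrpb2-3 than in Columbia-0. Over the 21 without it, 1 was called higher and 3 lower. Of all tested genes 15.8% were called higher and 15.1% lower. The difference between genes with and without the hexamer was not tested.

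The 250 bases before the annotated start are given for the H2B gene that rose most and the H2B gene that fell most in nrpb2-3, with the hexamer in capitals. The hexamer begins 96 bases before the start in AT3G53650 and 48 bases before it in AT2G37470.
AT3G53650 (chr3:19889047-19889296, plus strand): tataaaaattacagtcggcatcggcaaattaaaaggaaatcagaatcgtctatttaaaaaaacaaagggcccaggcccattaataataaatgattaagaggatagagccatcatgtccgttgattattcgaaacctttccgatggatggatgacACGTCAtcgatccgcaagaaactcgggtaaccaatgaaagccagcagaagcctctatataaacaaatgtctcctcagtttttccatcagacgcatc
AT2G37470 (chr2:15736477-15736726, plus strand): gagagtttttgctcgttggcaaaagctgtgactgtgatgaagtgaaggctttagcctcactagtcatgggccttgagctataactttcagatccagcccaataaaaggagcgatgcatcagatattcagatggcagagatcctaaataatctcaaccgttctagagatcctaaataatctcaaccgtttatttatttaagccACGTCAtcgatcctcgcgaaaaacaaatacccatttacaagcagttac

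The octamer CGCGGATC is the other classical plant histone motif. As an exact match it was present in 9 of 33 core histone promoters (27.3%) against 40 of 27431 (0.146%), and in none of the 8 H2B promoters. By type it was in 3 of 5 H3.1, 1 of 3 H3.3, 2 of 8 H4, 2 of 4 H2A, 0 of 2 H2A.X and 1 of 3 H2A.W promoters. Near matches were not counted, such as gatccgca after the hexamer of AT3G53650, which differs from the reversed octamer GATCCGCG in its last base. Another is catccgcg after the second hexamer of HTB2, which differs in its first base. The lack of exact matches in H2B promoters thus does not speak to partial ones next to the hexamer. The 11 sites are printed because the H3.1 and H4 genes called in nrpb2-3 against Columbia-0 carry them. The octamer, or its reverse complement GATCCGCG, is in capitals, on the strand of the gene.
H3.1 gene AT5G65360 (chr5:26120689-26120718, minus strand): tttagacgtgaCGCGGATCactaaaattaa
H3.1 gene AT1G09200 (chr1:2972406-2972435, minus strand): tcgtaccttcaCGCGGATCagtgttagaaa
H3.1 gene AT1G09200, second site (chr1:2972335-2972364, minus strand): ctgtgatttcaCGCGGATCgtgatagaaac
H3.1 gene AT5G10400 (chr5:3271059-3271088, minus strand): ttaacacaggaCGCGGATCgtaaagataca
H3.3 gene AT4G40040 (chr4:18558944-18558973, minus strand): tttatttcagcGATCCGCGacggtttgtat
H4 gene AT1G07660 (chr1:2368696-2368725, plus strand): tacagatttcaCGCGGATCgcaatcttgga
H4 gene AT5G59690 (chr5:24051392-24051421, plus strand): cactgccatcaCGCGGATCactaatatgaa
HTA10 (AT1G51060, chr1:18926726-18926755, plus strand): attcactctgaCGCGGATCctgaatctcga
HTA10, second site (chr1:18926790-18926819, plus strand): tgataaacagcGATCCGCGtagtttcttct
HTA13 (AT3G20670, chr3:7229311-7229340, plus strand): gcagtaacatcGATCCGCGtgattgtttat
HTA6 (AT5G59870, chr5:24116318-24116347, minus strand): atacatagtcaCGCGGATCgtgctttattt

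The octamer too was found in genes called in either direction. Of the 9 genes with it, 1 was called higher (AT1G07660) and 2 lower (AT1G09200, AT5G59690) in nrpb2-3 than in Columbia-0, with a median log2 fold change of −0.35. Of the 24 without it, 1 was called higher and 4 lower, with a median of −0.24. Against the mean of the FACT mutants, 1 of the 9 with it was called higher and 5 lower (median −0.43), and 2 of the 24 without it were called higher and 5 lower (median −0.06). Of all tested genes 30.9% were called against Columbia-0 and 30.6% against the mean of the FACT mutants. The difference between genes with and without the octamer was not tested. The other motifs were CCGTCG, in 9 of 33 core histone promoters (27.3%) and 3.98% of all promoters, and TATAAA, in 20 of 33 (60.6%) and 52.1%, but in none of the 3 H3.3 promoters. The E2F motif TTTCCCGC and the nonamer CATCCAACG were in none of the 33, and in 0.798% and 0.171% of all promoters. A match says only that the letters are present and is not evidence of a bound site.

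**Figure D4:**
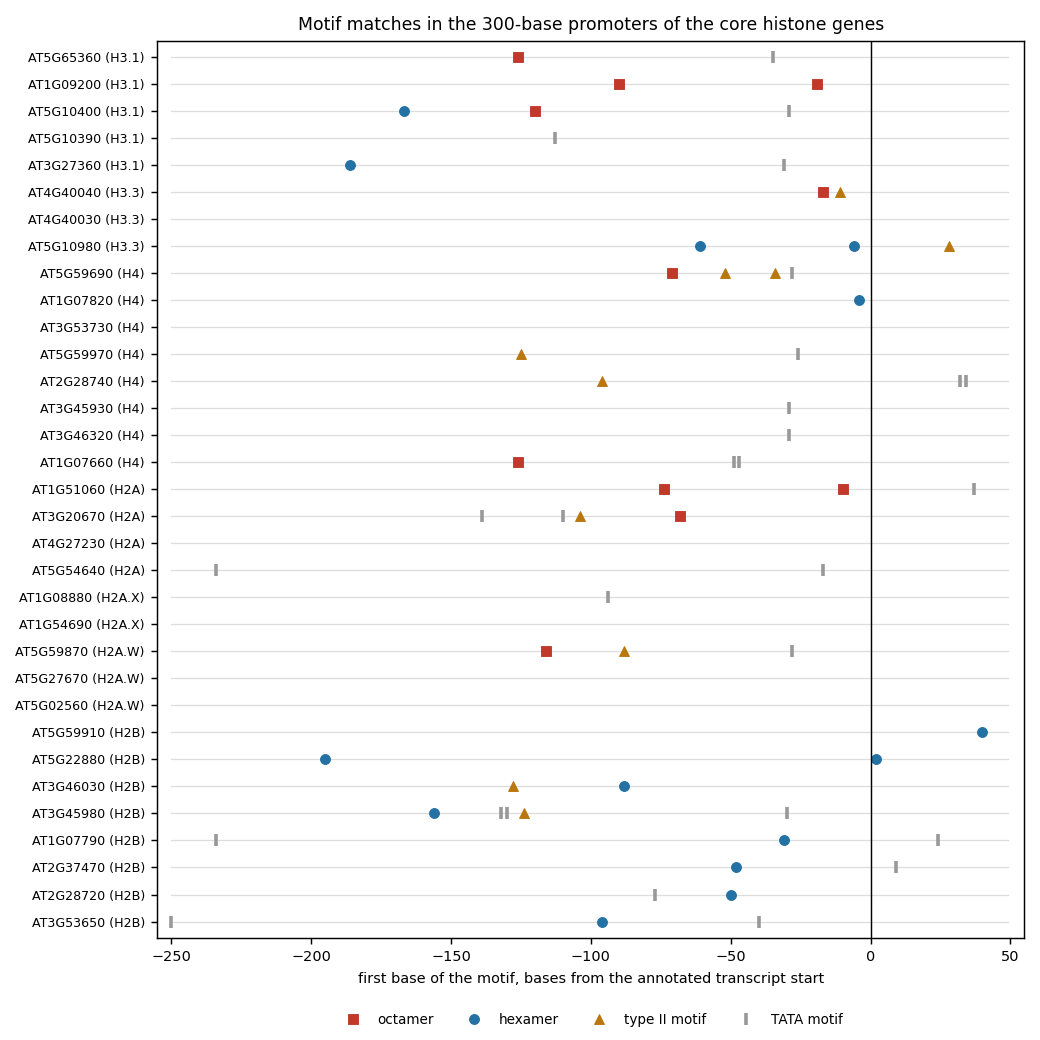
Position of each exact match to the octamer, the hexamer, CCGTCG and the TATA motif in the 300-base promoters of the 33 core histone genes (rows). The key shows CCGTCG under the label type II motif, which is only a label here. Positions are the distance of the first base from the annotated transcript start. The hexamer marks every H2B row and the octamer none, and the 11 octamer sites lie between 126 and 10 bases before the start.

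Neither FACT mutant changed a core histone gene past the threshold. In ssrp1-2, 0 of 33 genes were called against Columbia-0, where 0.557% of all tested genes were (0.454% higher and 0.103% lower), and 5 had an unadjusted p under 0.05. In spt16-2, 0 of 33 were called, where 0.42% of all tested genes were (0.376% higher and 0.044% lower), and none had an unadjusted p under 0.05. DESeq2 and the other alternatives also called none in either. The median log2 fold change of the histone genes was −0.04 in ssrp1-2 and −0.07 in spt16-2, beside 0.00 for all genes in both, and the 95% interval lay within ±1 for 31 of 33 genes in each mutant.

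For these histone genes in the FACT mutants, the median half-width of the 95% interval was 0.34 on the log2 scale. In ssrp1-2 the H2B gene AT3G53650, at 9.85 to 11.4 CPM against 5.91 to 8.11 CPM in Columbia-0, had the smallest unadjusted p (log2 fold change 0.53 ± 0.16, 95% interval 0.18 to 0.89, adjusted p = 0.25, edgeR). The H3.1 gene AT5G10390 stood at 29.0, 25.2 and 21.5 CPM in ssrp1-2 and 29.1, 34.8 and 37.3 CPM in Columbia-0 (−0.42 ± 0.15, adjusted p = 0.34, edgeR). The H2A.X genes were at −0.36 ± 0.14 (GAMMA-H2AX) and −0.26 ± 0.11 (H2AXA) in ssrp1-2 (adjusted p = 0.42 and 0.49, edgeR). Libraries of ssrp1-2 and Columbia-0 did not overlap for 2 higher and 6 lower histone genes, or 6.06% and 18.2%, beside 8.09% and 5.73% of all tested genes. In spt16-2 AT3G53650 was the single such gene, at 8.39 to 10.2 CPM, above the Columbia-0 libraries (0.30 ± 0.16, adjusted p = 0.70, edgeR; 0.34 ± 0.19 without replicate 2), beside 7.38% of all tested genes higher and 5.77% lower.

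Only the H2B gene AT2G28720 and the weak H3.1 gene AT3G27360 had intervals reaching past 1 in the FACT mutants against Columbia-0, and AT2G28720 had the largest fold changes. It stood at 21.3, 12.3 and 24.5 CPM in ssrp1-2, at 27.4, 11.1 and 20.2 CPM in spt16-2, and at 42.7, 21.6 and 37.5 CPM in Columbia-0. Replicate 2 was the lowest library in each of these genotypes, and in nrpb2-3 as well. The log2 fold change was −0.81 ± 0.36 in ssrp1-2 and −0.79 ± 0.36 in spt16-2 (adjusted p = 0.52 and 0.61, edgeR). Blocked by replicate number, the values were −0.81 ± 0.17 in each (adjusted p = 0.050 in ssrp1-2 and 0.062 in spt16-2, edgeR), still past the threshold in neither. Without spt16-2 replicate 2 the value in spt16-2 was −0.51 ± 0.33 (adjusted p = 0.96, edgeR).

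Libraries of 1 genotype differed together across the histone genes, most of all in spt16-2. There replicate 1 was the highest of its 3 in 28 of 33 genes and replicate 2 the lowest in 29 of 33. Their median log2 deviations from the spt16-2 mean were 0.23 and −0.26. Lesser shifts were seen elsewhere. The lowest of 3 was ssrp1-2 replicate 3 in 23 of 33 genes (−0.13), Columbia-0 replicate 1 in 19 (−0.15) and nrpb2-3 replicate 3 in 18 (−0.11). Summed over the 33 genes, the level was 2781, 1978 and 2451 CPM in spt16-2 replicates 1 to 3. The Columbia-0 libraries held 2351, 2468 and 2602 CPM. In spt16-2, replicate 2 is also the library with the SPT16 level inside the Columbia-0 range. Without it, no histone gene was called, and the median log2 fold change to Columbia-0 was 0.05 in place of −0.07.

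**Figure D5:**
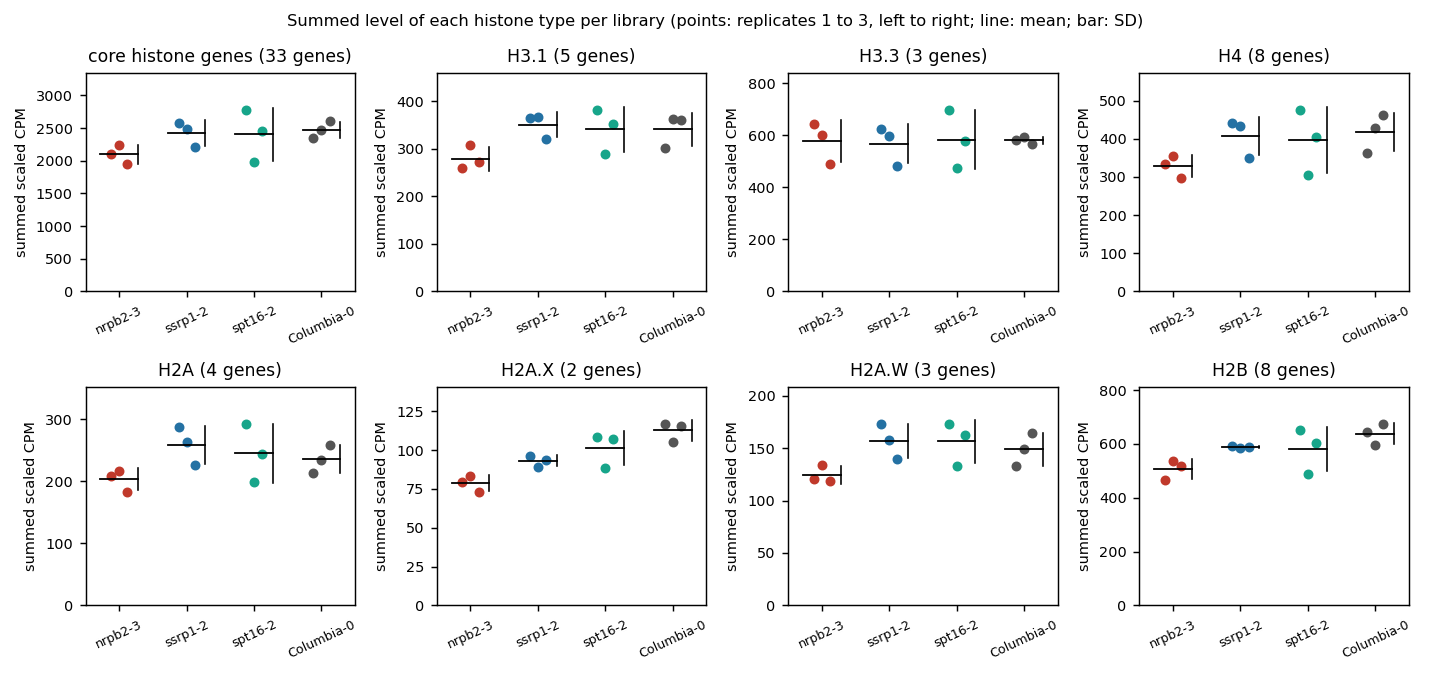
Summed scaled CPM of all 33 core histone genes and of each type in each of the 12 libraries, with the mean (line) and SD (bar) of each genotype. The spt16-2 libraries span 1978 to 2781 CPM over all types, a wider range than the 2351 to 2602 CPM of Columbia-0.

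The FACT mutants did not differ from each other in any called histone gene. In spt16-2 against ssrp1-2, 0 of 33 were called, beside 0.0684% of all tested genes (0.0537% higher and 0.0147% lower), and none had an unadjusted p under 0.05. No histone gene had libraries of spt16-2 and ssrp1-2 that did not overlap, beside 4.52% of all tested genes higher and 3.98% lower. The log2 fold changes ran from −0.30 to 0.28 with a median of −0.02, and 32 of 33 intervals lay within ±1. Summed over the 8 H2B genes, the level was 581 ± 82.7 CPM in spt16-2 and 588.6 ± 4.65 CPM in ssrp1-2 (SD, n = 3 each), and over the 8 H4 genes 396 ± 86.4 CPM in spt16-2 and 408 ± 50.2 CPM in ssrp1-2. Without spt16-2 replicate 2 none was called either, 1 had an unadjusted p under 0.05, and the fold changes ran from −0.24 to 0.37 with a median of 0.10.

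Set against the mean of the FACT mutants, nrpb2-3 had 3 core histone genes called higher and 10 called lower (39.4%, beside 30.6% of all tested genes, 15.6% higher and 15% lower). Libraries did not overlap for 3 higher and 8 lower histone genes, beside 16.2% and 15.9% of all tested genes. Both comparisons share the nrpb2-3 libraries, and this one uses 6 libraries on the other side. The median log2 fold change was −0.09, beside 0.04 for all genes. With library totals alone the split was 17 higher and 0 lower (10675 and 905 of all tested genes). The histone median was then 0.35, beside 0.49 for all genes. Without nrpb2-3 replicate 3 the split was 2 higher and 6 lower (1721 and 2099 of all tested genes).

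The genes called in this comparison included all 8 called against Columbia-0. AT3G53650 was at 0.77 ± 0.14 and AT1G07660 at 0.48 ± 0.14 (adjusted p = 0.0011 and 0.017, edgeR), and the H3.1 gene AT5G10390 was called higher here, at 35.6, 41.0 and 33.1 CPM in nrpb2-3 and 21.5 to 31.4 CPM in the FACT mutants (0.46 ± 0.12, adjusted p = 0.013, edgeR). Lower here but not called against Columbia-0 were the H3.1 gene AT5G65360 (−0.43 ± 0.12, adjusted p = 0.013), HTA6 (−0.60 ± 0.14, adjusted p = 0.0060), HTA2 (−0.52 ± 0.17, adjusted p = 0.034) and HTA10 (−0.48 ± 0.16, adjusted p = 0.037, all edgeR). AT1G09200 was at −0.72 ± 0.13, AT5G59690 at −0.58 ± 0.15, HTB4 at −0.49 ± 0.11, AT2G37470 at −0.48 ± 0.11, HTB11 at −0.47 ± 0.12 and H2AXA at −0.35 ± 0.10. Of these 13 calls, those of AT5G65360 (without nrpb2-3 replicate 1), AT5G10390 (without nrpb2-3 replicate 2), AT1G07660, AT5G59690 and H2AXA (each without nrpb2-3 replicate 3) were lost without 1 library. The call of HTA2 was lost without any 1 of nrpb2-3 replicates 2 and 3, ssrp1-2 replicates 1 and 2 and spt16-2 replicate 1, with an adjusted p up to 0.16. That of HTA10 was lost without any 1 of nrpb2-3 replicates 1, 2 and 3, ssrp1-2 replicate 1 and spt16-2 replicates 1 and 3, with an adjusted p up to 0.12. The replicate numbers paired the libraries of this comparison, and with the block AT2G28720 was called higher too (0.49 ± 0.15, adjusted p = 0.019, edgeR).

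Other cell-cycle and chromatin genes in nrpb2-3 are read here on the TMM scale, on which 15.8% of all tested genes were called higher than in Columbia-0 and 15.1% lower. Of 14 mitosis genes 6 were called higher (42.9%) and none lower (median log2 fold change 0.57), led by the B-type cyclins CYCB2;1 (1.89 ± 0.31), CYCB1;1 (1.01 ± 0.26) and CYCB2;2 (0.95 ± 0.24). Of 24 DNA replication genes 3 were called higher (12.5%) and none lower (median 0.16), a share of rises below that of all tested genes: the helicase subunits MCM5 (0.66 ± 0.20) and MCM4 (0.44 ± 0.15) and the origin licensing factor CDT1A (0.53 ± 0.19). Of 15 histone chaperone genes 3 were called higher (20%) and none lower (median 0.08), a share near that of all tested genes: ATRX (0.70 ± 0.16) and HIRA (0.56 ± 0.14), which act with H3.3, and SSRP1 (0.50 ± 0.11). In the FACT mutants SSRP1, lower in ssrp1-2 as described, was the only gene of these lists called.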

How the data were processed

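RNA-seq libraries of whole seedlings were read as a deposited table of counts per gene, which the authors derived from reads handled by fastp 0.23.4 and aligned to TAIR10 by HISAT2 2.2.1, per the submitters' processing notes. How reads were counted, on which strand, and what became of reads shared by genes is not given in the sources used here. A second deposited table, called TPM by the authors, holds a signal equal to count over gene length, times 1 factor per library (no deviation above 0.000421, relative, across 14077 genes), and its columns do not sum to a common total, so it served as an alternative and as the source of lengths. No column of another sample was present. Of 32833 genes, 26456 had a count and 20471 passed filterByExpr (minimum count 10).

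Counts were fitted with edgeR 4.0.16 in R 4.3.3 (TMM factors, robust quasi-likelihood fit of all 12 libraries, genotype as the single factor), tested on simulated data, with calls taken where the Benjamini-Hochberg adjusted p was below 0.05. Fold changes are log2 ± SE and levels are TMM-scaled CPM, with SD over 3 libraries. Per-length levels are counts over length, rescaled to a common total per library, a TPM-like scale. Intervals are 95%. Alternatives used DESeq2 1.42.0, limma 3.58.1 on the log2 signal plus a pseudocount of 1, other scalings, no filter, a length correction, a replicate block and each library left out in turn. The replicate numbers paired the libraries (correlation of deviations over 0.1 in every pair) between the 3 mutants and between spt16-2 and Columbia-0, but not between Columbia-0 and nrpb2-3 or ssrp1-2. Promoters and gene names came from RefSeq (TAIR10.1), in which all 33 loci matched; 5 overlap another annotated gene.

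The members and all gene lists were chosen with earlier results of these data known. Values per library are given for each histone gene called in any comparison and for the strongest by CPM of each type; outside the family, the mutated genes and up to 3 called genes per list with the smallest adjusted p are named.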

Additional observations from a re-analysis of the deposited data

How the results depend on the processing

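Of the 21 called differences between nrpb2-3 and its comparisons, all kept their direction and call with DESeq2, no filter, organelle genes left out, fits on the libraries compared alone and the replicate block. The length correction and the limma fit on the authors' signal each lost 2, HTA2 and HTA10 against the FACT mutants, and median-of-ratios factors lost 1, AT1G07660 against Columbia-0. With library totals 13 were lost and 3 turned round: AT5G65360 (0.029) and H2AXA (AT1G08880, 0.097) against the FACT mutants, and HTB11 (AT3G46030, 0.014) against Columbia-0. The count called higher against Columbia-0 (2) became 14 with library totals and 1 with median-of-ratios factors, and ran from 1 to 2 without 1 library. The count called lower (6) became 0 with library totals, 10 with DESeq2 and 10 with the replicate block. Of all tested genes 758, 3645 and 3840 were lower in these fits, in that order, beside 3097 in the main fit. Without 1 library the count lower ran from 5 to 10. It reached 10 without spt16-2 replicate 2, where 3236 of all tested genes were lower. DESeq2 and the block each added AT5G65360, HTA2 and HTB9, with HTA6 under DESeq2 and HTA12 under the block. Against the FACT mutants the count higher (3) became 17 and the count lower (10) became 0 with library totals, and these ran from 2 to 3 and from 6 to 11 without 1 library. The cause was not tested. The histone median against Columbia-0 (−0.28) was −0.10 with a length correction, −0.20 on the authors' signal and −0.20 without Columbia-0 replicate 3. For ssrp1-2, spt16-2 and their difference, every alternative called 0 genes in each direction. In the FACT mutants the interval of a typical gene reaches 0.34 to each side on the log2 scale, and AT3G53650 at 0.53 in ssrp1-2 was not called. Replicate numbers of nrpb2-3 and Columbia-0 correlated at 0.0236, 0.261 and 0.169, and 5 of these 6 libraries correlated best with their own number; for ssrp1-2 and Columbia-0 it was 4 of 6. The block is there a hint from the data, not the design.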

Other observations

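Core histone genes lie close together in Arabidopsis: 18 of the 33 fall into 7 clusters with gaps of at most 100000 bases, and neighbours did not always share a direction in nrpb2-3. On chromosome 5, the H4 gene AT5G59690, HTA6, HTB4 and the H4 gene AT5G59970 lie within 95256 bases, and their log2 fold changes to Columbia-0 were −0.62, −0.40, −0.59 and −0.45, with AT5G59690 and HTB4 called. On chromosome 1, the H4 gene AT1G07660 (0.47, called), HTB1 (0.22) and the H4 gene AT1G07820 (−0.07) lie within 53234 bases. On chromosome 3, AT3G53650 (1.18, called) and the H4 gene AT3G53730 (−0.40, not called) lie within 24219 bases. Coordinates are those of RefSeq, TAIR10.1.

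Outside the 33, 12 further histone genes of a list of 16 were tested, and 4 (33.3%) were called in nrpb2-3, beside 30.9% of all tested genes. The linker histone gene HIS1-3 (AT2G18050), known as a drought-responsive H1, rose by 3.71 ± 0.73 on the log2 scale (12.8 ± 7.89 CPM in nrpb2-3 and 0.975 ± 0.98 CPM in Columbia-0, adjusted p = 0.0043, edgeR). The H2B gene AT3G09480 rose by 1.27 ± 0.21 (6.14 ± 0.821 CPM in nrpb2-3 and 2.55 ± 0.193 CPM in Columbia-0, adjusted p = 0.00073, edgeR). The H2A.Z gene HTA11 (AT3G54560) fell by 0.76 on the log2 scale (29.5 ± 4.15 CPM in nrpb2-3 and 49.996 ± 5.85 CPM in Columbia-0, adjusted p = 0.0039, edgeR). Of these 12 genes 2 were called higher and 2 lower. In both FACT mutants none was called. Of the 40 promoters with the octamer, 10 belong to listed histone genes, of which 9 are core genes and the other is that of the linker histone gene AT1G06760.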
